A study of Schizosaccharomyces pombe with 12 samples.

Results

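The genes of the cytosolic ribosome were followed in the fission yeast Schizosaccharomyces pombe, in the wild type and in 3 strains with substitutions in histone H2B. A gene was taken as a member when its symbol began with rpl or rps followed by a digit, a rule that uses no measured value. It held for 131 of the 5160 genes in the deposited tables, 76 for proteins of the large subunit (rpl) and 55 for proteins of the small subunit (rps). All 131 matched the RefSeq annotation of ASM294v3, and for 130 of them the RefSeq product name holds the words ribosomal protein. Among these 130, rpl701 is annotated there as an RNase MRP subunit that is ribosomal protein L7-like. It was kept as a member and, by its number, paired with rpl702. The gene outside the 130, rpl44, is annotated there as a protein with an L28e domain. All 131 had reads and passed the filter on low counts.

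RNA sequencing libraries enriched for mRNA with oligo(dT) were made from whole cells of 4 strains, 3 libraries each. Mutant A carries alanine, Q glutamine and R arginine instead of lysine at residues 5, 10 and 15 of H2B, although for A replicate 2 the labels name residue 16 rather than 15. Arginine keeps the charge of lysine, and glutamine is a common stand-in for acetyl-lysine. WT carried no substitution in the labels. The labels name no further allele or culture condition. They do not say whether replicates are separate cultures, and the p-values therefore reflect the spread among these libraries alone, which may be technical. The series sets each mutant against WT, and the comparisons between mutants were added here.

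A ribosome holds 1 copy of most of its proteins, and fission yeast cells make these proteins in large amounts while they grow. Many of them are encoded by pairs of genes, paralogues, whose proteins are nearly or fully identical. Most promoters of ribosomal protein genes in this yeast lack a TATA box and carry in its place the HomolD box, which is bound by the factor Rrn7, often with a HomolE box further upstream. In yeasts the expression of these genes is tied to nutrient supply through the TOR kinases.

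By paralogue numbers, and for 4 pairs by their shared RefSeq product, the 131 genes fell into 74 families. 20 genes stood alone, 51 families were pairs and 3 had 3 members, so that 111 genes had a paralogue. The 3 genes of protein uL2 are rpl801, rpl802 and rpl803, whereas rpl8 encodes another protein, eL8. The genes lay on chromosomes I (58), II (48) and III (25), 68 of them with an intron and 63 without. Among 60 paralogue comparisons 16 gave identical proteins, the median protein identity was 97.9% and the lowest 78.8%. Coding sequences were less alike, with a median identity of 87.9%, a lowest value of 66.1% and a highest of 99.6%. Runs of 50 bases shared between paralogues covered over 10% of the transcript in 8 genes, 4 pairs that include those of rpl10, rpl12 and rpl3, so the split of reads within these 4 pairs is uncertain. 31 members overlapped another coding gene, and the handling of strand is not given in the sources used here, so reads of overlapping genes could not be told apart.

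The sequences upstream of 8 genes are shown because they belong to the genes and pairs described below: the rpl34 pair, of which rpl3402 had the largest rise in R, both genes of the rpl25 and rpl15 pairs, whose balance shifted, and 2 of the 3 uL2 genes. Each is the 100 bases before the annotated transcript start (RefSeq, ASM294v3), read 5′ to 3′ towards the gene. Capitals mark a complete HomolD box (CAGTCACA) or HomolE box (a pair of ACCCT in a row) on either strand.
rpl3402 (chrIII:1321248-1321347, plus strand): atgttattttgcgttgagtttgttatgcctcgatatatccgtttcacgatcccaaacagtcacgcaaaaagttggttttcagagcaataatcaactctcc
rpl3401 (chrI:4093799-4093898, minus strand): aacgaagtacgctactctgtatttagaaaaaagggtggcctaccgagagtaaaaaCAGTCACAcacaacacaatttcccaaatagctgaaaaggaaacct
rpl2501 (chrII:413427-413526, plus strand): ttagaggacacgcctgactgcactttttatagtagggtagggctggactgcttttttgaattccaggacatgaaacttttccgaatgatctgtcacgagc
rpl2502 (chrII:2690721-2690820, plus strand): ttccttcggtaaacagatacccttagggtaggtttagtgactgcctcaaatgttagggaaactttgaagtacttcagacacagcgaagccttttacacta
rpl802 (chrII:1726565-1726664, plus strand): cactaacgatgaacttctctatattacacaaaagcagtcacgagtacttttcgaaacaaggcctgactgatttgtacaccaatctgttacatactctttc
rpl803 (chrII:601152-601251, plus strand): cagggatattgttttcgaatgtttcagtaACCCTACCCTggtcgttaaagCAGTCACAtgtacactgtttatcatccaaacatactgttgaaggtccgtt
rpl15 (chrIII:2099746-2099845, plus strand): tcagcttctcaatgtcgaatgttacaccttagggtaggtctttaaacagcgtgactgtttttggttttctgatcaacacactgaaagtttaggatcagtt
rpl1502 (chrI:2204395-2204494, minus strand): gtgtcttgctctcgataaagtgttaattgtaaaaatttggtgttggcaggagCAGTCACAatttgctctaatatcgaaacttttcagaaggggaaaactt
rpl803 holds both boxes, rpl3401 and rpl1502 hold HomolD, and the other 5 windows hold neither. The windows of rpl3402 and rpl802 hold the run cagtcacg, and that of rpl15 holds it on the other strand, which is HomolD with another last letter (the run was looked for after the windows had been read). The window of rpl2502 holds agtgactg, which is also HomolD on the other strand with another last letter. Near matches of HomolE were not listed.

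Across the group, windows from 250 bases before to 50 bases after the annotated start were available for 127 members. HomolD was found in 80 of them (63.0%), against 131 of 4512 protein-coding genes with such a window (2.90%). HomolE was found in 38 members (29.9%), against 61 of all 4512 genes (1.35%), and both boxes in 21 members (16.5%) against 26 genes (0.576%). The first 7 letters of HomolD, CAGTCAC, occurred on either strand in 117 members (92.1%) and in 228 of all genes (5.05%). These letters are part of HomolD, so the 117 include the 80. The boxes kept to narrow positions: the median first base lay at -50 for HomolD and at -70 for HomolE, and 80 of 84 HomolD matches began between -70 and -40. HomolD matches ran forward in 57 cases and in reverse in 27, whereas HomolE matches were even, 19 each.

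**Figure D1:**
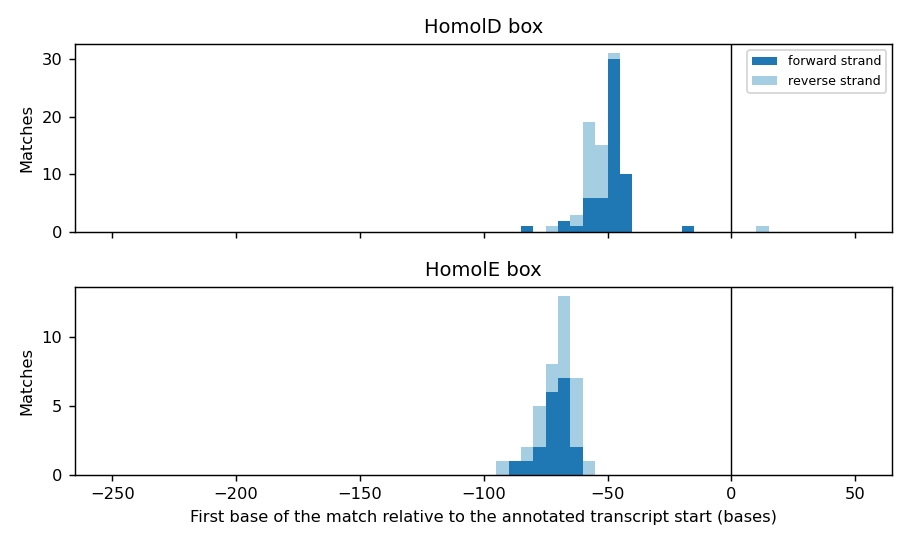
Number of HomolD (upper) and HomolE (lower) matches in the windows of the ribosomal protein genes, in bins of 5 bases, by the position of the first matched base relative to the annotated transcript start, with forward and reverse strand matches stacked. HomolD matches gather around a median of -50 and HomolE matches around -70.

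Levels are given as FPKM, which is scaled for gene length, where genes are compared with each other, and as CPM, the count scaled to the total count of its library, where libraries are compared. The libraries held between 15329416 (Q replicate 1) and 20050394 (WT replicate 1) counts, so that 3 counts, the floor, corresponded to between 0.15 and 0.196 CPM, and every member lay far above it. In WT the median FPKM of the members was 493, against 39.1 over all genes, and 103 of the 131 lay in the top 10% of genes. rpl8, for the large-subunit protein eL8, was highest at 2277 ± 115 FPKM (SD, n = 3), followed by rpl13 (eL13) at 1575 ± 20.6 FPKM and rps102 (eS1) at 1422 ± 5.84 FPKM. At the other end stood rpl3002 (eL30) at 19.9 ± 3.49 FPKM, rpl1603 (uL13) at 20.1 ± 2.4 FPKM and rpl3402 (eL34) at 24.1 ± 3.32 FPKM. The transcript of rpl1603 overlaps the coding gene apl1 along its whole length. Small-subunit genes had a median of 533 FPKM and large-subunit genes of 442 FPKM in WT. Genes with a HomolD box had a median of 581 FPKM, those with a window but no complete box 372 FPKM.

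The share of the libraries taken by ribosomal protein transcripts was not shown to differ between the strains. This share of the gene counts was 5.05%, 5.80% and 4.23% in A replicates 1 to 3, 6.03%, 6.41% and 5.39% in Q, 5.72%, 6.15% and 6.15% in R, and 5.08%, 5.72% and 5.07% in WT. The libraries of A lay on both sides of those of WT, and 2 of 3 Q libraries and 2 of 3 R libraries lay above every WT library. The means were 5.03% ± 0.781 in A, 5.94% ± 0.514 in Q, 6.01% ± 0.250 in R and 5.29% ± 0.373 in WT (SD, n = 3 each). The differences from WT were -0.262 percentage points in A, 0.656 in Q and 0.719 in R, with p = 0.7, 0.2 and 0.2 by two-sided exact permutation tests over libraries, which cannot go below 0.1 with 3 against 3. Without A replicate 3 the difference in A turned to 0.135 percentage points. The ratio of large-subunit to small-subunit counts was between 1.40 and 1.42 in A, 1.37 and 1.40 in Q, 1.37 in each library of R, and 1.37 and 1.39 in WT.

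**Figure D2:**
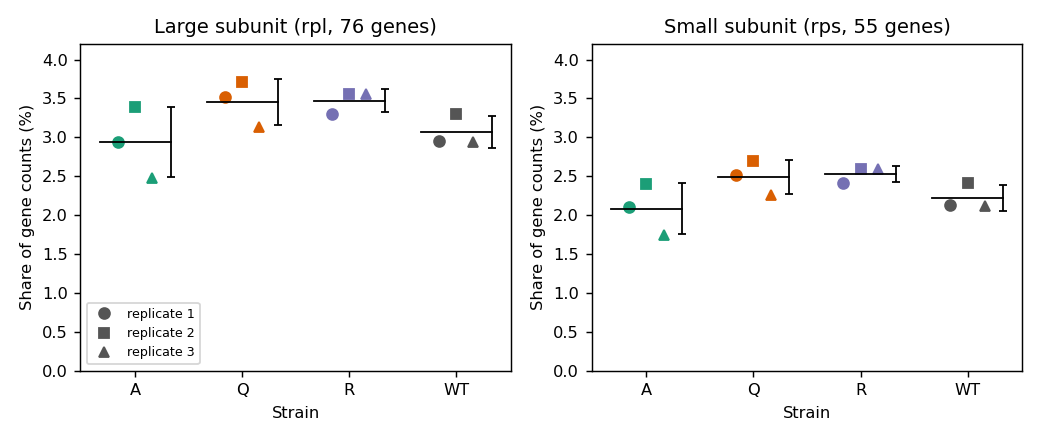
Share of each library's gene counts that fell in ribosomal protein genes of the large (left) and small (right) subunit, by strain, with replicates as symbols, the mean as a line and the SD as a bar (n = 3). The 3 libraries of A spread more widely than those of the other strains and overlap WT in both panels.

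The members moved together from library to library within a strain. In A, replicate 2 was the highest of the 3 libraries for 124 of 131 members and replicate 3 the lowest for 129, whereas over all genes tested replicate 2 was highest for 33.1% and replicate 3 lowest for 40.2%. In WT replicate 2 was highest for 116 members, in Q replicate 2 was highest for 88 and replicate 3 lowest for 107, and in R replicate 1 was lowest for 100, with replicate 2 highest for 62 and replicate 3 for 59. The median coefficient of variation of CPM between replicates was 16.8% for the members in A, 11.002% in Q, 7.96% in R and 8.98% in WT, against 13.2%, 15.4%, 13.9% and 6.39% over all genes. Each count of calls below is also given with replicate 2 of A, Q and R left out, since it stood high for most members in A and Q, though not in R, an alternative chosen after the data had been seen. WT replicate 2, itself the highest WT library for 116 members, stayed in those fits. What part these libraries had in the results was not tested otherwise. htb1, which encodes H2B and carries the substitutions, was at 17146, 9650 and 5769 CPM in A, 1187, 1177 and 1375 CPM in Q, 5218, 5458 and 5606 CPM in R and 3053, 3395 and 3374 CPM in WT, so the strains also differed in the level of this transcript, and its part in the results was not tested.

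In the arginine mutant R, 27 ribosomal protein genes were called higher than WT and 0 lower (edgeR quasi-likelihood test, adjusted p below 0.05). This is 20.6% of the 131, while 13.2% of all 5024 genes tested were called higher and 11.1% lower in the same comparison. The calls were 17 of 76 large-subunit and 10 of 55 small-subunit genes. The median log2 fold change of the members was 0.25, against -0.01 over all genes tested, and 122 of 131 were above 0. rpl3402 alone exceeded a log2 fold change of 1. The fitted changes in R were above the ratios of the printed CPM values, because TMM scaling, whose factors were 0.928 to 0.995 in R, moved the median of all genes from -0.10 on total counts to -0.01. On total counts the members' median was 0.16.

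The minor gene for eL34 of the large subunit, rpl3402, was at 42.1, 46.8 and 38.1 CPM in R, against 18.1, 23.1 and 18.6 CPM in WT. Every R library lay above every WT library by more than the spread within either strain, with a log2 fold change of 1.18 (SE 0.16, adjusted p = 0.00106). Its paralogue rpl3401, with 603, 680 and 661 CPM in R and 601, 711 and 609 CPM in WT, overlapped between the strains (log2 fold change 0.11, adjusted p = 0.524). rpl2501, the major gene for uL23, which lies at the exit of the peptide tunnel, had 593, 817 and 670 CPM in R and 385, 456 and 390 CPM in WT (log2 fold change 0.85, SE 0.17, adjusted p = 0.00683). Its libraries did not overlap either, and rpl2502, the other gene of the pair, was not called (153, 160 and 167 CPM in R, 148, 180 and 145 CPM in WT, log2 fold change 0.11, adjusted p = 0.587).

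All 3 genes of uL2, a protein near the catalytic centre of the large subunit, were called higher in R. rpl802 had 200, 251 and 215 CPM in R and 134, 144 and 128 CPM in WT (log2 fold change 0.81, adjusted p = 0.0123). rpl803 had 330, 436 and 364 CPM in R and 250, 277 and 245 CPM in WT (log2 fold change 0.64, adjusted p = 0.0163). rpl801, the most abundant of the 3, had 929, 987 and 944 CPM in R and 723, 803 and 732 CPM in WT (log2 fold change 0.43, adjusted p = 0.0194). In each of them the R libraries lay above all WT libraries, and the summed level of the family was 1552 ± 111 CPM in R and 1146 ± 68.4 CPM in WT. rpl902, a gene of uL6, had 356, 436 and 401 CPM in R and 263, 253 and 245 CPM in WT (log2 fold change 0.74, adjusted p = 0.0046), and its paralogue rpl901 rose less, with a log2 fold change of 0.45 (adjusted p = 0.0277). The sum of this pair was 1208 ± 90.8 CPM in R and 886 ± 31.0 CPM in WT.

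The next largest called rises in R were in rpl1702, rpl35b, rps20 and rps1402. rpl1702 (uL22) had 253, 324 and 305 CPM in R and 201, 201 and 184 CPM in WT (log2 fold change 0.68, adjusted p = 0.0059), and 46.4% of its transcript overlaps the coding gene coy1. rpl35b (eL33) had 298, 388 and 311 CPM in R and 205, 245 and 213 CPM in WT (log2 fold change 0.68, adjusted p = 0.0104). In the small subunit rps20 (uS10), which has no paralogue, had 441, 662 and 547 CPM in R and 343, 430 and 328 CPM in WT (log2 fold change 0.67, adjusted p = 0.0383). rps1402 (uS11) had 486, 657 and 577 CPM in R and 366, 432 and 355 CPM in WT (log2 fold change 0.67, adjusted p = 0.0241). In these 4 genes no R library fell among the WT libraries, although in rps20 the lowest R and highest WT values, 441 and 430 CPM, nearly met. The remaining calls in R had log2 fold changes between 0.37 and 0.66.

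With 3 libraries a group, the number of calls in R leaned on single libraries. Leaving out WT replicate 1, 2 or 3 gave 4, 17 and 5 calls, and leaving out R replicate 1, 2 or 3 gave 22, 9 and 18. Genes called higher over all genes fell as well, from 662 with every library to 185, 349 and 188 without the WT libraries in turn. They numbered 265 without R replicate 2 and 617 without R replicate 3, and were also below 662 without R replicate 1. rpl3402, rpl2501, rpl1702 and rpl902 were called in every one of these fits. Without replicate 2 of all 3 mutants 43 members were called, all higher, and 628 of all genes were called higher.

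**Figure D3:**
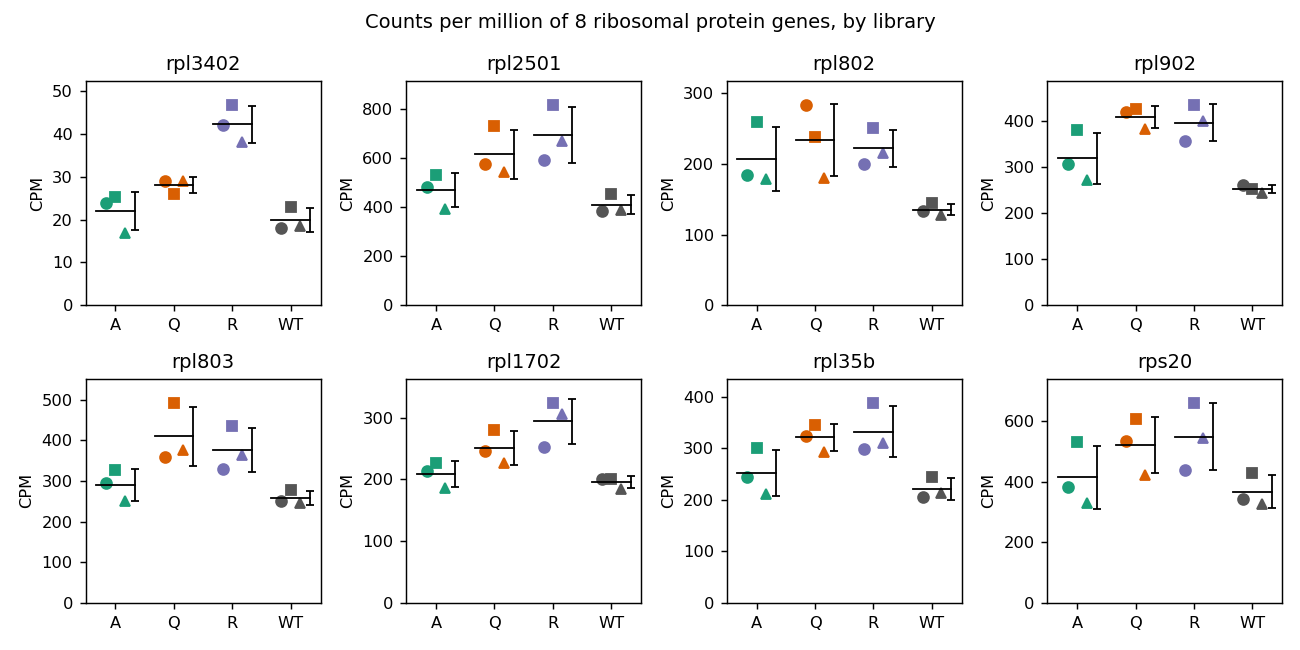
CPM of 8 ribosomal protein genes in each library, by strain, with replicate 1 as circles, 2 as squares and 3 as triangles, the mean as a line and the SD as a bar (n = 3). In every panel the 3 R libraries lie above the 3 WT libraries, and rpl3402 is at 38.1 to 46.8 CPM in R, against 18.1 to 23.1 CPM in WT.

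In the glutamine mutant Q, 17 members were called higher than WT and 0 lower, 13.0% of the 131, in a comparison in which 18.6% of all genes tested were called higher and 15.8% lower. The share of members called higher was thus below that of genes at large. The calls were 14 of 76 large-subunit and 3 of 55 small-subunit genes, while the median log2 fold change was 0.11 in both subunits. The median log2 fold change was 0.11, against 0.02 over all genes tested, and 93 of 131 members were above 0. The Q and R comparisons use the same WT libraries. 13 genes were called in both, 76.5% of the Q calls and 48.1% of the R calls.

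rpl802 of uL2 led in Q, with 283, 238 and 181 CPM, against 134, 144 and 128 CPM in WT (log2 fold change 0.77, SE 0.18, adjusted p = 0.0102). rpl803 followed with 360, 493 and 378 CPM in Q and 250, 277 and 245 CPM in WT (log2 fold change 0.65, adjusted p = 0.0103). The third gene, rpl801, was not called in Q, with a log2 fold change of 0.24 (adjusted p = 0.118). rpl902 (uL6) had 420, 426 and 383 CPM in Q and 263, 253 and 245 CPM in WT (log2 fold change 0.67, adjusted p = 0.00535), while its paralogue rpl901 had 660, 763 and 650 CPM in Q and 626, 663 and 609 CPM in WT (log2 fold change 0.11, adjusted p = 0.535). In rpl802, rpl803 and rpl902 the Q libraries did not overlap those of WT.

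rpl2301 (uL14) had 211, 210 and 167 CPM in Q and 109, 149 and 119 CPM in WT (log2 fold change 0.62, adjusted p = 0.0252), and in R it just missed the threshold (log2 fold change 0.52, adjusted p = 0.0613). rpl2501 rose by a log2 fold change of 0.57 in Q (adjusted p = 0.021), with 575, 730 and 543 CPM in Q and 385, 456 and 390 CPM in WT. rpl302 (uL3) had 604, 482 and 386 CPM in Q and 323, 337 and 322 CPM in WT (log2 fold change 0.56, adjusted p = 0.0217). It shares 56.1% of its transcript, in runs of 50 bases, with rpl301, which was not called (log2 fold change 0.10, adjusted p = 0.699), so the split between them is uncertain. rpl2002 (eL20) had 436, 415 and 340 CPM in Q and 252, 299 and 252 CPM in WT (log2 fold change 0.55, adjusted p = 0.0275). rpl35b (eL33) had 324, 345 and 293 CPM in Q and 205, 245 and 213 CPM in WT (log2 fold change 0.52, adjusted p = 0.0198). In all 5 genes the lowest Q library was above the highest WT library, and the remaining calls in Q had log2 fold changes between 0.34 and 0.51.

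The calls in Q also leaned on single libraries. Leaving out WT replicate 1, 2 or 3 gave 3, 9 and 3 calls, and leaving out Q replicate 1, 2 or 3 gave 8, 3 and 24. All genes called higher numbered 936 with every library, and 544, 555 and 461 without the WT libraries in turn. Without the Q libraries in turn they numbered 946, 629 and 801. rpl802, rpl803 and rpl902 were called in each of these fits. Without replicate 2 of all mutants 16 members were called higher and 2 lower, rpl1502 (log2 fold change -0.37) and rps1602 (-0.32), and the members' median log2 fold change was -0.01 in place of 0.11. Of all genes, 1029 were called higher and 1010 lower in that fit.

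In the alanine mutant A, 0 of the 131 members were called, by edgeR, in a comparison in which 4.16% of all genes tested were called, 2.73% higher and 1.43% lower. By edgeR, 7 of the 131 members had an unadjusted p below 0.05, against 1231 of all 5024 genes tested. DESeq2 called 1 member, and of all genes 319 higher and 234 lower. The median log2 fold change was -0.06, against 0.01 over all genes, with 49 members above 0 and 82 below. The lowest adjusted p was that of rpl802, 0.0636, whose libraries had 184, 260 and 179 CPM in A and 134, 144 and 128 CPM in WT (log2 fold change 0.66). rpl902 had 308, 380 and 272 CPM in A and 263, 253 and 245 CPM in WT (log2 fold change 0.37, adjusted p = 0.115). Both genes thus had A libraries above all WT libraries without passing the test. Without replicate 2 of the mutants 5 members were called lower in A, rpl1002 (-0.43), rpl1502 (-0.40), rpl1801 (-0.36), rps1602 (-0.35) and rps2601 (-0.50, all log2 fold changes), named after their values had been seen. In that fit 351 of all genes were called higher and 299 lower. Without A replicate 3 the members' median was 0.04 and without WT replicate 2 it was 0.02, so its sign in A rested on single libraries.

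**Figure D4:**
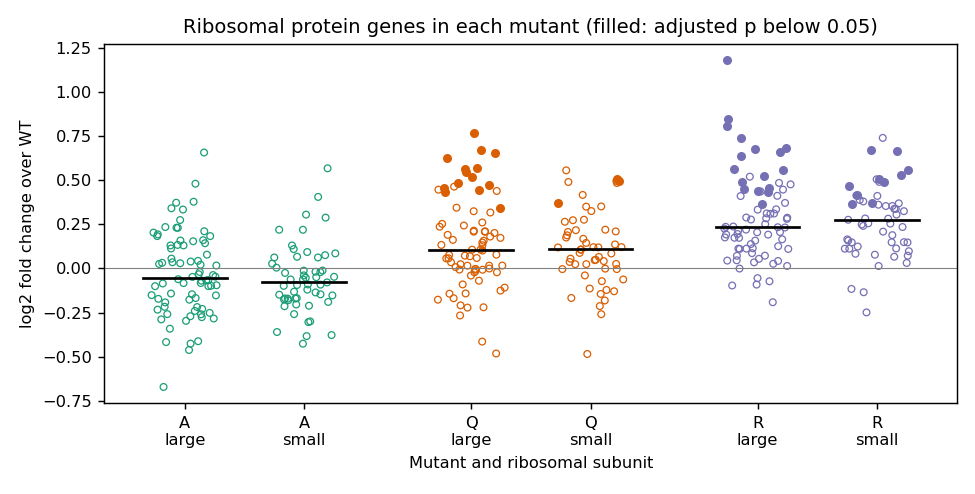
Fitted log2 fold change over WT of each ribosomal protein gene in A, Q and R, split by subunit, with genes past an adjusted p of 0.05 filled and the median of each set as a line. The medians lie just below 0 in A and above 0 in Q and R, and the highest point is rpl3402 in R at 1.18.

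Across the mutants, which are all compared with the same WT libraries, the fitted log2 fold change was ordered R above Q above A in 113 of 131 members. 48 members were above 0 in all 3 mutants and 7 were below 0 in all 3. No share over all genes was computed for these counts, and the members moved together between libraries, so they are a description. The order also moved with libraries and scaling. Q was above A in 125 members by the main fit and in 93 without A replicate 3. Q was above R in 16 by the main fit and in 51 with limma on FPKM values. Direct comparisons between mutants gave few calls. Between R and A, 5 members were called higher in R and 0 lower, 3.82% of the 131, against 0.876% of all genes tested called higher, 1.59% lower and 2.47% in all. The median log2 fold change of R over A was 0.33, against -0.01 over all genes, and 122 members were above 0. Over all genes, libraries of R and A with the same replicate number deviated together (correlations of 0.18, 0.32 and 0.19). Over the members alone the correlations were -0.002, -0.014 and -0.523. The 5 calls come from the main fit, which does not use this pairing. With the replicate number as a block 22 members were called, all higher in R. Without A replicate 2 the count was 17, without R replicate 1 it was 2, and without any other single library of these groups it was 1. Without replicate 2 of the mutants it was 59. Over all genes, 44 were called higher in R by the main fit, 197 with the block and 231 without replicate 2 of the mutants. Leaving out A replicate 2 alone gave 73 over all genes.

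The widest gap between R and A was that of rpl3402, at 42.1, 46.8 and 38.1 CPM in R and 24.0, 25.3 and 16.9 CPM in A (log2 fold change 1.00, adjusted p = 0.00661). It was the call that held without each library in turn. rpl1702 (0.55), rpl901 (0.55), rps2401 (0.54), a gene of eS24, and rps1502 (0.51), a gene of uS19 named beyond the rule for genes, were also called, with adjusted p between 0.0474 and 0.04995. rps2401 had 486, 481 and 491 CPM in R and 369, 385 and 293 CPM in A, with no overlap, and its adjusted p was just under the threshold. Between Q and R, 1 member was called, against 3.64% of all genes tested (2.07% higher and 1.57% lower in Q): rpl3402 was lower in Q, with 29.2, 26.0 and 29.1 CPM in Q and 42.1, 46.8 and 38.1 CPM in R (log2 fold change -0.71, adjusted p = 0.0302). The libraries did not overlap, but the call was lost without Q replicate 1, 2 or 3 or R replicate 1 or 3, with a highest adjusted p of 0.104, and without R replicate 2 the count was 2. 16 members were called lower in Q than in R without replicate 2 of the mutants, as were 462 of all genes. The members' median log2 fold change of Q over R was -0.16, against 0.02 over all genes. On total-count FPKM values the median of all genes moved to 0.13 and that of the members to -0.04. Between Q and A, 0 members were called by edgeR, where 0.0398% of all genes tested were called. DESeq2 called 0 members, and of all genes 45 higher and 70 lower in Q. By edgeR, 9 members had an unadjusted p below 0.05, against 926 of all 5024 genes tested. Leaving out A replicate 2 gave 2 members called, both higher in Q, and 32 of all genes called higher. The median log2 fold change of the members there was 0.18, against 0.02 over all genes.

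The 63 members without an intron had median log2 fold changes over WT of 0.02 in A, 0.21 in Q and 0.33 in R, and 0, 13 and 21 of them were called. The 68 members with an intron had medians of -0.15, 0.02 and 0.18, and 0, 4 and 6 were called. Of the other genes tested, 369 of 2498 without an intron were called higher in Q and 263 in R, and 542 of 2354 with an intron in Q and 367 in R. Members without an intron thus had the higher median in each mutant, and among all other genes tested the order was the opposite, with medians of -0.04, -0.09 and -0.08 for the 2498 genes without an intron and 0.06, 0.11 and 0.04 for the 2354 with one. No test was made of this difference. R over A showed no such gap, with medians of 0.33 without and 0.34 with an intron. In 6 pairs only 1 of both paralogues has an intron. Its share of the counts of the pair was lower than in WT in 3 of the 6 in A, 4 in Q and 5 in R, so within pairs the direction was mixed. The 111 of 131 members with a paralogue held all 17 calls in Q and 26 of 27 in R. Their median log2 fold change was 0.13 in Q and 0.28 in R, against 0.00 and 0.16 for the 20 genes without one.

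Genes with and without a complete HomolD box had nearly the same medians. The median log2 fold change in R was 0.25 for the 80 genes with HomolD. It was 0.24 for the 47 with a window and no complete HomolD, and in Q it was 0.11 for both. Of these 47 genes, 37 hold the first 7 letters of HomolD, so this split does not compare genes with and without that run. With HomolE the medians were 0.31 in R and 0.17 in Q for 38 genes, against 0.23 and 0.08 for the 89 without. In the windows printed above, rpl3402, rpl2501 and rpl802, the strongest rises in R, hold neither complete box. Most calls in R were in genes with HomolD, 18 of the 80, against 8 of the 47 without it. With HomolE 10 of the 38 were called in R, and 16 of the 89 without. Of all genes tested 13.2% were called higher in R.

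In most families the balance between paralogues in a mutant lay outside the range of the WT libraries. The share of each paralogue in the counts of its family does not depend on how libraries are scaled. In the 51 pairs the more abundant gene held a median of 66.3% of the counts in WT, and in 7 pairs at least 80%. In 33 of 54 families with paralogues (61.1%) the shares in A did not overlap those in WT, and in 34 families (63.0%) each in Q and R. For single genes, the CPM did not overlap WT for 40.5% of all genes tested in A, 52.8% in Q and 56.0% in R. That is a different measure from a share within a family, and no background over all genes was computed for shares. In 49 families the shares stood apart from WT in at least 1 mutant, and in 17 of 51 pairs in all 3 mutants and in the same direction. These counts of families and pairs are therefore given as a description. The shifts were small, with medians of 2.74, 3.49 and 3.09 percentage points in A, Q and R. Of the 51 pairs the gene that is more abundant in WT lost share in 30 in A, 28 in Q and 27 in R, so both directions were common.

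The 5 families described next were chosen by these values, among the largest shifts, and their shares are given as a description. Within the pair for eL15, which differ by 1 residue, rpl15 held 47.9%, 51.7% and 50.8% of the counts in A, 53.4%, 51.1% and 51.1% in Q, 48.5%, 52.5% and 49.7% in R, and 41.3%, 44.6% and 42.5% in WT. WT was thus the strain in which rpl1502 was the larger gene in every library. The summed level of the pair was 678 ± 92.2, 745 ± 75.4 and 769 ± 39.5 CPM in A, Q and R and 743 ± 20.4 CPM in WT. Of this, rpl1502 was at 338 ± 44.2, 358 ± 31.6 and 383 ± 29.3 CPM in A, Q and R and 425 ± 5.14 CPM in WT, while rpl15 was at 340 ± 51.9, 387 ± 45.7 and 386 ± 20.03 CPM in the mutants and 318 ± 20.7 CPM in WT. Within the pair for uL23, whose proteins differ at 10 residues, rpl2501 held 77.98%, 78.03% and 78.8% in A, 78.7%, 82.6% and 81.3% in Q, 79.5%, 83.7% and 80.1% in R, and 72.2%, 71.7% and 73.0% in WT. Every mutant library was above every WT library. The major gene gained here, unlike in the pair for eL15.

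Within the pair for uL6, whose proteins differ at 11 residues, rpl902 held 34.3%, 37.0% and 35.6% in A, 38.9%, 35.9% and 37.1% in Q, 32.1%, 33.7% and 32.8% in R, and 29.5%, 27.6% and 28.7% in WT. The minor gene gained in all 3 mutants, and A and Q lay above R. Within the pair for eL20, which encodes 1 identical protein, rpl2002 held 44.7%, 47.5% and 44.0% in A, 47.8%, 46.3% and 45.5% in Q, 43.1%, 45.5% and 42.7% in R, and 38.6%, 37.9% and 38.5% in WT. Within the pair for eS8, rps801 held 61.8%, 64.6% and 64.8% in A, 63.6%, 71.0% and 66.2% in Q, 63.7%, 71.4% and 65.9% in R, and 58.4%, 61.1% and 57.3% in WT. In both pairs no mutant library overlapped WT, with Q replicate 2 and R replicate 2 highest for rps801.

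**Figure D5:**
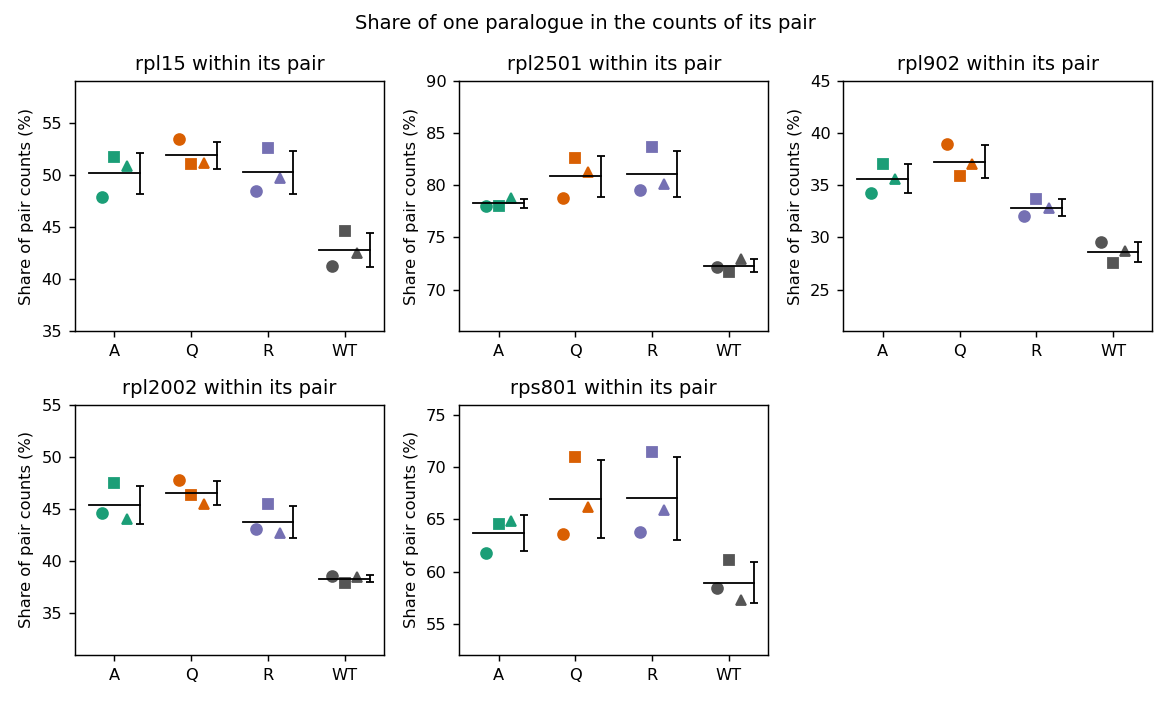
Share of the named paralogue in the counts of its pair, in percent, for each library by strain, with the mean as a line and the SD as a bar (n = 3); each vertical axis covers 24 percentage points and does not start at 0. In all 5 panels the mutant libraries lie above all WT libraries.

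Summed over paralogues, the counts give the reads per protein, which are not scaled for the differing lengths of paralogue transcripts. Of 74 families, 29 (39.2%) in R, 18 (24.3%) in Q and 0 in A had all mutant libraries above all WT libraries in summed CPM. Below WT in all libraries were 0 families in R, 0 in Q and 3 in A, those of rpl34, rpl35 and rps16, while 37.1% of single genes tested were below WT in every library in R, 24.1% in Q and 22.0% in A. For single genes 19.0% of all genes tested were above WT in every library in R, 28.7% in Q and 18.5% in A. For rpl34, the sum was 555 ± 77.5 CPM in A and 660 ± 64.0 CPM in WT. In R the same sum was 690 ± 41.2 CPM, of which rpl3402 made up 42.3 ± 4.37 CPM.

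Genes that make, fold or regulate ribosomal proteins were looked at beside the members. Their counts stand against 18.6% of all genes tested called higher and 15.8% called lower in Q, 13.2% and 11.1% in R, and 2.73% and 1.43% in A, and the lists are short. Of the 11 ribosomal protein genes with other names (the stalk proteins, ubiquitin fusions and cpc2), 1 was called higher in Q, rpp0 for the stalk base, at 931 ± 146 CPM in Q and 679 ± 7.84 CPM in WT (log2 fold change 0.43, adjusted p = 0.0409), and 0 in A and R. Of the 8 elongation factor genes 0 were called in any mutant. Of 5 chaperones of ribosomal proteins 4 were called lower in Q and 0 in A and R. rrb1, a chaperone of uL3 in budding yeast, was at 102 ± 19.5 CPM in Q and 176 ± 3.53 CPM in WT (log2 fold change -0.82, adjusted p = 0.00586), and syo2, listed with these chaperones, at 56.6 ± 13.5 CPM in Q and 113 ± 5.72 CPM in WT (log2 fold change -1.03, adjusted p = 0.00423). tsr2 (-0.55) and yar1 (-0.44), chaperones of eS26 and uS3 in budding yeast, were lower as well. Over all 5 genes the medians were, as log2 fold changes, -0.36 (A), -0.55 (Q) and -0.40 (R).

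Of 4 factors linked to ribosomal protein gene transcription, Q had 1 called lower and 1 higher, and A and R had 0. sfp1, whose budding yeast counterpart activates ribosomal protein genes, was at 62.3 ± 5.10 CPM in Q and 108 ± 11.3 CPM in WT (log2 fold change -0.81, adjusted p = 0.0144). rap1, which acts at telomeres in fission yeast and at ribosomal protein genes in budding yeast, was at 20.8 ± 5.42 CPM in Q and 10.2 ± 1.23 CPM in WT (log2 fold change 0.99, adjusted p = 0.00653). Of 15 TOR pathway genes 4 were called higher in Q, where 18.6% of all genes were, and 0 in A and R: the kinases tor1 (log2 fold change 0.33, adjusted p = 0.036) and tor2 (0.58, 0.00704), and the kinases sck1 (0.38, 0.0202) and ppk18 (0.69, 0.00884), while the median of the 15 in Q was -0.07. Of 5 genes for NatA and ribosome quality control, 2 were called lower in Q, hbs1 (-0.68), which acts in ribosome rescue, and rqc1 (-0.52), and 1 in R, rqc1 (-0.49, adjusted p = 0.0157).

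The authors' deposited table, with its own test, listed more members past an FDR of 0.05: 3 higher and 1 lower in A, 23 higher and 0 lower in Q, and 63 higher and 0 lower in R. The share of all genes past the same FDR was not computed here, so these counts do not set the members apart from other genes. In the authors' deposited table rpl3402 in R was the 1 member that also passed a log2 ratio of 1.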

How the data were processed

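Per the file headers, the authors deposited a read count and an FPKM value for 5160 genes in each of 12 libraries. The deposited log2 ratios, p-values and FDR values are from the authors' own test and were cited only as such. fastp, Bowtie2, HISAT2, StringTie, RSEM and DESeq2 are named in the submitters' processing notes, with neither version nor purpose. The build, annotation and strand setting behind the deposited values were not given in the sources used here. Sample titles gave the groups. Floors of 3 counts allow for counting error and nothing else.

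The main test was the quasi-likelihood F test of edgeR 4.0.16 (R 4.3.3), run over all 12 libraries with strain as the sole term after TMM scaling; filterByExpr retained 5024 genes and removed 136. The dispersion gave a common coefficient of variation of 0.186, with 4.16 prior degrees of freedom. The call threshold was 0.05 on p-values adjusted by Benjamini-Hochberg over all genes tested, two-sided. Each SE is the log2 fold change divided by the root of F and is approximate. The fit was tested on simulated data. Alternatives were DESeq2 1.42.0, RLE size factors, TMM factors from genes other than ribosomal protein genes, no filter, limma 3.58.1 on log2(FPKM + 1) for genes with a mean FPKM of at least 1, the 2 groups alone, a replicate block, each library left out, and replicate 2 of all mutants left out (added after seeing the data). Chi-square per degree of freedom between replicates was 15.8 to 204, so no library was a copy.

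Pairing was judged from how same-numbered libraries deviate from their group means. Over all genes the correlations were 0.32, 0.40 and 0.29 between Q and R and 0.18, 0.32 and 0.19 between R and A. Every value was over 0.1, so equal numbers may be pairs there, on the data and not the labels. The other comparisons did not have every value over 0.1. Over ribosomal protein genes alone the correlations were 0.26, 0.56 and -0.38 between Q and R and -0.002, -0.014 and -0.523 between R and A. The main fit did not use any pairing, which entered only the alternative with a replicate block.

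Upstream windows, introns, overlaps and coding sequences came from RefSeq ASM294v3, matched by gene identifier, and coordinates are those of RefSeq. Identities were computed with Biopython 1.88. Windows were taken for genes with an annotated 5′ untranslated region.

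Genes were named by a rule: up to 8 called rises and 8 called falls per mutant, members called one way in all 3 mutants, the 6 families with the largest share shift without overlap (at least 100 counts in every library), the 3 highest and 3 lowest FPKM in WT, up to 4 calls per direction between mutants and up to 4 called genes per other list. Paralogues of these genes stand beside them and were not taken by the rule. 1 family taken by the rule is not reported here. Members, lists and rule were chosen with earlier results of these data known.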

Additional observations from a re-analysis of the deposited data

Results flagged for a closer look

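The comparisons of mutants with one another gave 5 ribosomal protein genes for which the difference between 2 mutants passed the edgeR test. rpl3402, the minor gene for eL34, had log2 fold changes of 1.00 for R over A (adjusted p = 0.00661) and -0.71 for Q over R (adjusted p = 0.0302). rpl1702 (uL22) stood higher in R than in A by a log2 fold change of 0.55, rpl901 (uL6) by 0.55, rps2401 (eS24) by 0.54 and rps1502 (uS19) by 0.51. Most of these calls were not stable: of 6 fits that each left out 1 library, rpl901, rps2401 and rps1502 were called in 1, rpl1702 in 2 and rpl3402 in 1 for Q over R, and with the 2 groups alone or with limma these 5 calls were lost. For R over A, rpl3402 was called in all 6 of these fits and in all 8 other fits. The R libraries lay above all A libraries in each of these genes. Part of the transcript of rpl1702 (46.4%), rps1502 (15.1%) and rpl901 (8.48%) overlaps another coding gene; its part in the result was not tested.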

How the results depend on the processing

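The 50 calls of single members kept their direction under all 14 alternatives each (700 values), of which 198 no longer passed the threshold. Counts of called members moved more. In A, with 0 called, the fit of the 2 groups alone gave 3 (2 higher, 1 lower), DESeq2 1, the replicate block 1 and leaving out replicate 2 of the mutants 5. In Q, with 17, the replicate block gave 26. In R, with 27, the 2 groups alone gave 51, the replicate block 43 and leaving out replicate 2 of the mutants 43. For Q over R, with 1, the 2 groups alone and limma gave 0 each, and leaving out replicate 2 of the mutants 16; for Q over A, with 0, the last gave 2. For R over A, with 5, the 2 groups alone gave 1, limma 1, DESeq2 19, the replicate block 22 and leaving out replicate 2 of the mutants 59. The block changed no other count by over 1.5 times. Leaving out single libraries gave 0 calls in A, 3 to 24 in Q, 4 to 22 in R, 0 to 2 for Q over R, 0 to 2 for Q over A and 1 to 17 for R over A. Counts over all genes moved with the fits as well. In R, 662 of all genes were called higher by the main fit, 794 with the 2 groups alone and 810 with the block. For R over A these counts were 44, 41 and 197. The difference in share of counts ranged from -0.646 to 0.135 percentage points in A, where it reversed without A replicate 3, from 0.425 to 0.933 in Q and from 0.608 to 0.934 in R. Families whose shares did not overlap WT numbered 35 to 40 in A, 34 to 39 in Q and 36 to 39 in R, and 33, 34 and 34 with shares from FPKM. Fits without a library have fewer samples; otherwise the cause of these changes was not tested. Pairs with shared sequence, a strand setting not given in the sources and 3 libraries a group limit what small changes can be told apart.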

Other observations

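7 members were below 0 in log2 fold change in all 3 mutants: rpl401, rpl1502, rpl3002, rpl3702, rpl4102, rps2802 and rps29. rpl4102, a gene of the very small protein eL41, had -0.67 in A, -0.41 in Q and -0.07 in R, and rps2802 (eS28) had -0.43, -0.49 and -0.13. None of the 7 was called in any mutant by edgeR with all 12 libraries, but rpl1502 was called lower in A (-0.40) and Q (-0.37) without replicate 2 of the mutants. They were picked out after their values had been seen.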
